A study of Drosophila melanogaster with 2 samples.

Results

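Long noncoding RNA genes that carry a peak of the tagged protein CG43689 at a start site are the subject here. They were found among the 2447 genes on the Drosophila melanogaster chromosome arms whose symbol begins with lncRNA: or asRNA:, the prefixes that FlyBase gives to long noncoding and antisense RNA genes. A gene was counted when the summit of a peak of the main list lay within 500 bp of the 5' end of any of its annotated transcripts. By that rule 83 genes were found, 65 of them lncRNA genes and 18 asRNA genes. In 28 of the 83 the same summit also lay within 500 bp of the start site of a protein-coding gene, and in the other 55 it did not. The genes were therefore selected on the measured peaks, and the presence and strength of those peaks are a description, given with no test. The data are chromatin immunoprecipitation and sequencing (ChIP-seq) of whole embryos aged 8 to 24 h from the strain CG43689-GFP, whose transgene encodes CG43689 fused to eGFP, a green fluorescent protein. Sonicated chromatin of 200 to 800 bp was pulled down with an antibody to GFP, although another label field names the antibody CG43689. The 2 samples are biological replicates of 1 group, so every animal carried the transgene and no condition was compared. No untagged or input library was analysed here.

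A long noncoding RNA is transcribed like a messenger RNA but encodes no known protein. Some of these transcripts act on chromatin or on other RNAs, some are precursors from which microRNAs are cut, and for many no function is known. Fly promoters are often divergent or crowded, so a protein bound between a pair of start sites cannot be given to either gene by its position alone. Signal below is the value that the authors deposited for each peak, on a scale not given in the sources used here and different in each list, and the main list was made from both replicates together. A whole-embryo value cannot tell a weak peak in many cells from a strong peak in few.

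The DNA at 8 summits is shown, 101 bases centred on the summit, because base composition about the summits is described further on. They are the 4 strongest of each kind among the genes on X, 2L, 3L and 3R, and stronger summits elsewhere are not shown. The sequences come from the RefSeq copy of the dm6 assembly and read 5' to 3' on the strand of the noncoding gene. Capitals mark runs of 6 or more bases that are all A or T. The first 4 have no coding start site at the summit and lie at chrX:12751357-12751457 (+), chr2L:14024040-14024140 (-), chr3R:29214403-29214503 (+) and chr3R:17700528-17700628 (+).
CR44619: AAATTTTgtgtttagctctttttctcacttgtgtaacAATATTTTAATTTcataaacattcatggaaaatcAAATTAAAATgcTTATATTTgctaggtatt
CR31840: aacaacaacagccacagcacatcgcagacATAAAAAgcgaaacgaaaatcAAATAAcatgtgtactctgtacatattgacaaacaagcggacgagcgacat
CR31044: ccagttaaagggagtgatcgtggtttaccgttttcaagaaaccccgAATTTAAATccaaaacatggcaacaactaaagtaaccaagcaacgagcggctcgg
CR46036: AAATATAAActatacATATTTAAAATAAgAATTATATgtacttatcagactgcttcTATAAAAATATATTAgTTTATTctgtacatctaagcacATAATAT
The other 4 share the summit with a coding start site and lie at chr2L:9568689-9568789 (-), chrX:523427-523527 (-), chr2L:8205259-8205359 (-) and chrX:765123-765223 (+).
CR44149: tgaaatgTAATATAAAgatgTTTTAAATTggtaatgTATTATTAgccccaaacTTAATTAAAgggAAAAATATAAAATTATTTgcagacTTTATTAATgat
enrr: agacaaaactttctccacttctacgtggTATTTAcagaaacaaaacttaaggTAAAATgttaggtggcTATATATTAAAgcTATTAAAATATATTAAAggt
CR44120: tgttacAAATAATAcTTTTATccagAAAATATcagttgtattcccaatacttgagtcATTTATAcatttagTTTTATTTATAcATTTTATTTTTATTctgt
CR44966: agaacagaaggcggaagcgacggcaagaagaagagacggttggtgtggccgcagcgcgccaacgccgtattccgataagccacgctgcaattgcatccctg
Runs of A and T covered 58 of the 101 bases at CR46036 and 62 at CR44149. They covered 13 bases at CR31840 and 9 at CR31044. The window at CR44966, beside the ribosomal protein gene RpL22, held no such run and was 59.4% G or C. Of the 8 windows, 5 had over 30 bases in such runs and 3 had 13 or fewer, and both kinds of gene were among each.

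lncRNA:CR31044 is the precursor of 2 microRNAs, mir-279 and mir-996, small RNAs that repress messenger RNAs by pairing with them through the seed, bases 2 to 8. miR-279 is known for its part in the specification of olfactory neurons. The peak at CR31044 had a main list signal of 427.5, rank 42 of all main summits. Its own signal was 194.7 in replicate 1 and 235.3 in replicate 2, and it was thresholded in the lists of both. The summit lay 109 bp upstream of the CR31044 start site, 1132 bp before the hairpin of mir-279 and 2731 bp before that of mir-996. No coding start site was nearer than 5719 bp. The mature RNAs below, read from RefSeq coordinates (chr3R:29215651-29215672 and chr3R:29217244-29217265, both on the plus strand), carry the same seed, shown in capitals.
mir-279-RA: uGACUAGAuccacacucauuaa
mir-996-RA: uGACUAGAuuucaugcucgucu
The seed is GACUAGA in both. The summit was not alone at this locus, since 3 other main summits lay within 10 kb of it.

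Other microRNA precursors were found as well. lncRNA:CR43651 holds mir-14, known for limiting cell death and fat storage, and lncRNA:CR43650 holds mir-8, a relative of the vertebrate miR-200 family with a part in growth control. With CR31044, these were the 3 genes of the 83 that contained an annotated small RNA gene. The share over all lncRNA and asRNA genes was not counted, so 3 of 83 is not shown to be unusual. The CR43651 summit had a signal of 87.2 in the main list, 34.4 in replicate 1 and 54.0 in replicate 2, and only the replicate 2 list held it as a thresholded peak. The CR43650 summit had 70.0 in the main list, 45.3 in replicate 1 and 23.8 in replicate 2, and only the replicate 1 list held it. These 2 lay near the middle and in the lower part of the 83, and their replicates did not rank them alike. Their summits stood 65 bp downstream and 41 bp upstream of the nearest host start sites, and 853 and 784 bp before the hairpins. For CR43650 that start site, at 16830689, belongs to a shorter transcript. The gene begins at 16829095 on the plus strand, so its summit lay inside it. The CR43650 window had the highest GC content of all 87 summits, 65.3%.

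The 83 genes were 3.39% of the lncRNA and asRNA genes (95% Wilson interval 2.74 to 4.19). The same rule found 1166 of 13945 protein-coding genes, or 8.36% (7.91 to 8.83). The share was 3.34% for lncRNA genes (65 of 1944) and 3.58% for asRNA genes (18 of 503). Among noncoding genes with a coding start site within 500 bp of their own, 6.09% had a main summit (27 of 443, interval 4.22 to 8.72), and among those with none 2.79% did (56 of 2004, interval 2.16 to 3.61). Counted against genes that had at least a ranked summit, the shares were 4.25% for noncoding genes (83 of 1951) and 11.2% for coding genes (1166 of 10423). The intervals of noncoding and coding genes did not overlap, nor did those of noncoding genes with and without a coding start site nearby, while the interval of the former reached into that of coding genes. The 27 genes differ from the 28 named above because one count measures from start site to start site and the other from the summit. The rule takes any annotated start site, so a gene with more of them can be counted more easily. With the 5' end of the gene alone, 973 coding genes and 80 noncoding genes had a main summit, in place of 1166 and 83. The number of start sites per gene was not adjusted for.

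The genes were unevenly spread over the arms. On 2R 26 of 394 noncoding genes had a main summit (6.60%, 95% Wilson interval 4.54 to 9.49). The share was 4.52% on X (14 of 310), 2.60% on 2L (16 of 616), 2.35% on 3L (13 of 553) and 2.55% on 3R (14 of 550). None of the 24 on chromosome 4 had one, and that chromosome had no main peak at all. The interval on 2R lay above those of 2L, 3L and 3R, while coding genes on 2R were found at 7.85%, below 8.32% on 2L and 9.49% on 3L. The 88 pairs of a gene and a summit used 87 summits: 5 genes had 2 summits, and CR44867 and CR44868 shared 1.

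The depth of the libraries is unknown, since the lists hold no read counts. The main list held 2088 peaks, 2062 of them on the arms, with a median signal of 88.1. The thresholded lists of the replicates alone held 1253 and 1265 peaks, so a main peak was not always in either. The peaks of all 87 summits overlapped a ranked peak of replicate 1 by at least 1 bp, and those of 86 overlapped one of replicate 2. The shares of all main summits were 99.5% and 98.5%, so nearly every main summit met this measure. The exception was CR45168, whose signal was 53.6 in replicate 1.

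**Figure D1:**
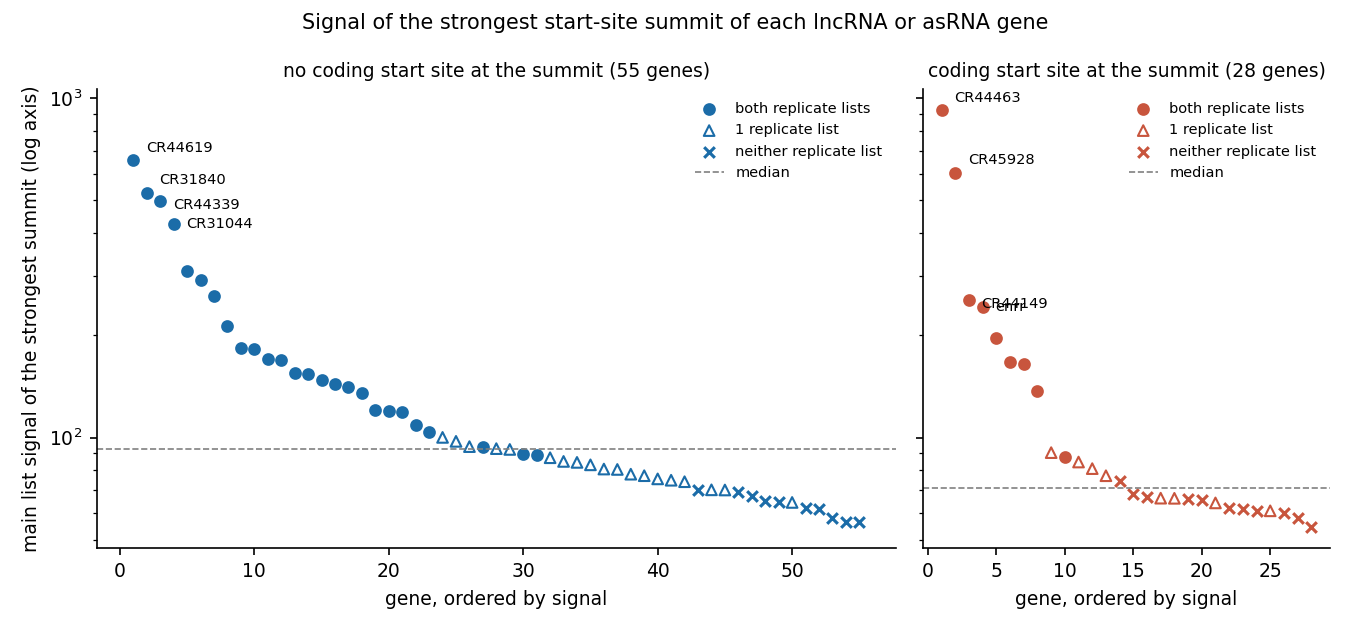
Signal in the main list (log axis) of the strongest start-site summit of each gene, ordered from high to low, for the 55 genes with no coding start site at the summit and the 28 with one; marks show how many replicate lists hold the peak as thresholded, and dashed lines are the medians, 92.8 and 71.2. The strong genes of both panels are in both replicate lists, and the long flat tail holds most genes in 1 list or neither.

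Among the 55 genes with no coding start site at the summit, the strongest was lncRNA:CR44619 on X. Its summit had a signal of 656.6 in the main list, 300.8 in replicate 1 and 358.8 in replicate 2, rank 11 of all main summits. It lay 460 bp upstream of the CR44619 start site. The same position falls inside lncRNA:Vinr, a virus-inducible RNA with a part in immunity, whose own start site had no main summit within 500 bp. lncRNA:CR31840 came next, with 527.8 in the main list, 202.6 in replicate 1 and 325.6 in replicate 2. Its summit was 9 bp downstream of the start site, the closest among the 12 strongest genes of this kind. Its neighbour lncRNA:CR45352 had a summit 1.83 kb away with a signal of 100.1.

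The next 3 genes beside CR31044 were CR44339, CR46036 and CR44810. lncRNA:CR44339 had a main list signal of 499.8, with 223.1 in replicate 1 and 279.2 in replicate 2. The nearest coding start site, 4212 bp away, was that of Psc, a Polycomb group gene, and the longest A/T run of all 87 windows, 35 bases, was found there. lncRNA:CR46036 lies within osa, which encodes a subunit of a SWI/SNF chromatin remodelling complex. Its summit had 309.7 in the main list, 146.0 in replicate 1 and 171.9 in replicate 2, and lay 163 bp upstream of CR46036. lncRNA:CR44810 had 291.2 in the main list, 142.0 in replicate 1 and 150.7 in replicate 2. Its nearest coding start, 4536 bp away, was slbo, a C/EBP factor of border cell migration. All 3 had close values in the replicates and a summit 161 to 164 bp upstream of a noncoding start site. At CR44810 that start site, at 24329730, belongs to a shorter transcript. The gene runs from 24325027 to 24330277 on the plus strand, so the summit lay inside CR44810 and downstream of its 5' end. Nearness to a gene such as Psc or slbo does not show that the RNA acts on it, and no gene list was tested.

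The remaining strong genes of this kind were lncRNA:CR44363 (261.2), asRNA:CR44429 (213.2), lncRNA:CR44867 (183.1), lncRNA:CR44409 (182.0), lncRNA:CR45251 (170.6) and lncRNA:CR45541 (169.2), each signal from the main list. All 6 were in both replicate lists. CR44429 runs against gce, a receptor gene for juvenile hormone, and its summit lay 535 bp from a gce start site, just past the 500 bp limit. CR44409 runs against Dif, an NF-kappaB factor of immunity, and its summit lay 1971 bp from a Dif start site. CR44867 and CR44868 lie in an intron of beat-Ib, a gene of motor axon guidance, with summits 886 bp apart that had signals of 183.1 and 120.9. The weaker summit served both: it was 487 bp downstream of the CR44867 start site and 380 bp upstream of that of CR44868. CR44867 is 372 bp long, so that summit lay past its 3' end.

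Of the 55 genes, 19 lie wholly inside a coding gene, and some of lower signal are given as examples. lncRNA:CR44222 lies in kis, a chromodomain helicase gene, with a main list signal of 143.9. lncRNA:CR45997 lies in mbl, which encodes the splicing factor muscleblind, with 141.0. lncRNA:CR46265 lies in ChAT, the gene of acetylcholine synthesis, with 93.8. lncRNA:CR44331 lies in puc, a phosphatase gene of JNK signalling, and had the main list value 74.1. Its replicates were far apart, 55.04 in replicate 1 and 14.9 in replicate 2. asRNA:CR45467 was uneven the other way, with 12.8 in replicate 1 and 40.9 in replicate 2 beside 57.9 in the main list. Over the 55 genes the strongest summits ran from 56.4 to 656.6 with a median of 92.8. Coding start sites lay at a median distance of 3695 bp from these 59 summits, and the farthest, at lncRNA:CR43431, was 40476 bp from mirr, an Iroquois homeodomain gene. Some lay just past the 500 bp limit, such as dUTPase at 532 bp from the CR45778 summit and CG3987 at 561 bp from that of CR45600.

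In the 28 genes whose summit also lay at a coding start site, the peak was on the whole nearer to the coding gene. The strongest was at lncRNA:CR44463, with a signal of 925.2 in the main list, 429.8 in replicate 1 and 504.4 in replicate 2. Its rank was 4 of all main summits. The summit lay 431 bp downstream of the CR44463 start site and 147 bp upstream of that of mRpL41, which encodes a protein of the mitochondrial ribosome. CR44463 is 201 bp long, so the summit lay beyond its 3' end. asRNA:CR45928 had 604.3 in the main list, 292.0 in replicate 1 and 312.4 in replicate 2. Its start site is only 29 bp from that of eIF6, a gene of 60S ribosome assembly, on the other strand. The summit was 71 bp from the noncoding start and 100 bp from the coding start, so this pair cannot be parted by position.

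lncRNA:CR44149 and the coding gene brwl begin 105 bp apart and point away from each other. The summit there had 255.2 in the main list, 106.9 in replicate 1 and 148.9 in replicate 2. lncRNA:enrr begins at the same base as a transcript of elav, the neuronal RNA-binding protein gene, and its summit was 251 bp upstream of both. That summit had 242.7 in the main list, 119.4 in replicate 1 and 122.6 in replicate 2. enrr was the only gene of the 83 with a symbol other than a CR number. lncRNA:CR44120 had 196.0 in the main list, and its summit was 339 bp downstream of its start and 177 bp upstream of SLC5A11, a solute transporter gene. CR44120 is 282 bp long, so this summit too lay beyond the 3' end of the noncoding gene. lncRNA:CR44966, opposite RpL22, had 167.5 in the main list, with 94.4 in replicate 1 and 73.5 in replicate 2. Its summit was 43 bp upstream of the RpL22 start and 115 bp upstream of its own.

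Most of the remaining partners had weaker summits. asRNA:CR45305 (87.4 in the main list) begins 109 bp into RpL37A, a ribosomal protein gene, and its summit was 18 bp upstream of RpL37A. lncRNA:CR45463 (77.2) had its summit 112 bp upstream of Sec61alpha, the channel of the secretory pathway, and 242 bp upstream of Daxx, a histone chaperone gene. Further partners were Cyt-b5 and Drat at CR44209 (165.2), Reg-5 at CR43257 (137.0), CG4199 and Rtca at CR44382 (90.3), coro at CR44169 (84.7) and cer at CR45925 (81.0). coro encodes coronin, an actin regulator, and cer an inhibitor of cysteine proteases. Weaker partners included MED4 of the Mediator complex (68.1), Dp, the partner of E2F (66.2), and the Notch target E(spl)m3-HLH (61.8).

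In all, the 28 summits had 34 coding partners, since 6 summits had 2. Of these, 15 were divergent from the noncoding gene, 11 faced it and 8 ran on the same strand. The summit was nearer to the coding start in 19 of 28 cases, nearer to the noncoding start in 8 and equally near in 1, at enrr. The median distance was 158.5 bp to the nearest coding start and 244.5 bp to the noncoding start. It lay upstream of the nearest coding start in 20 of 28, and upstream of the noncoding start in 11 of 28. In 6 of the 15 divergent pairs it lay between the 2 start sites.

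**Figure D2:**
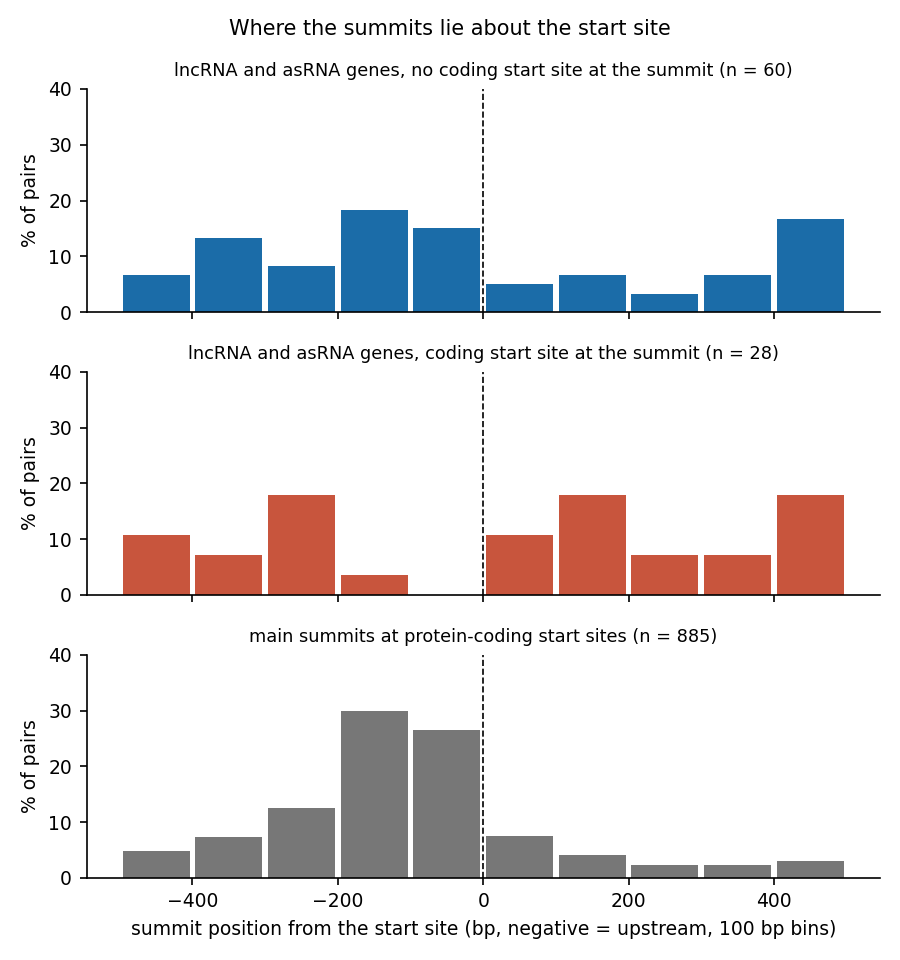
Position of the summit from the start site (negative is upstream), as the percent of pairs in bins of 100 bp, for noncoding genes with no coding start site at the summit, noncoding genes with one, and main summits at protein-coding start sites measured from the nearest coding start. Coding start sites have 29.9% and 26.4% of summits in the 2 bins just upstream, while both noncoding panels are spread over the window.

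Summits at coding start sites crowd just upstream, and those of the noncoding genes did so less. Of 885 main summits within 500 bp of a coding start site, which include the 28 shared ones, 80.9% lay upstream of it (95% Wilson interval 78.2 to 83.4). For noncoding genes with no coding start site the share was 61.7% (37 of 60, interval 49.0 to 72.9). For those with one it was 39.3% (11 of 28, interval 23.6 to 57.6). Ranked summits outside the main list at noncoding start sites without a coding one lay upstream in 43.6% of 2482 pairs (interval 41.6 to 45.5). The interval of the 60 pairs thus lay between those of coding start sites and of the ranked summits and met neither. The median distance from the start site was 253.5 bp in the 60 pairs, 244.5 bp in the 28 and 139 bp at coding start sites. Within 100 bp of the start site lay 12 of 60, 3 of 28 and 33.9% of the 885. Downstream means past the start site, and in short genes such as CR44463 and CR44120 the summit lay beyond the 3' end. How many summits did so was not counted.

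**Figure D3:**
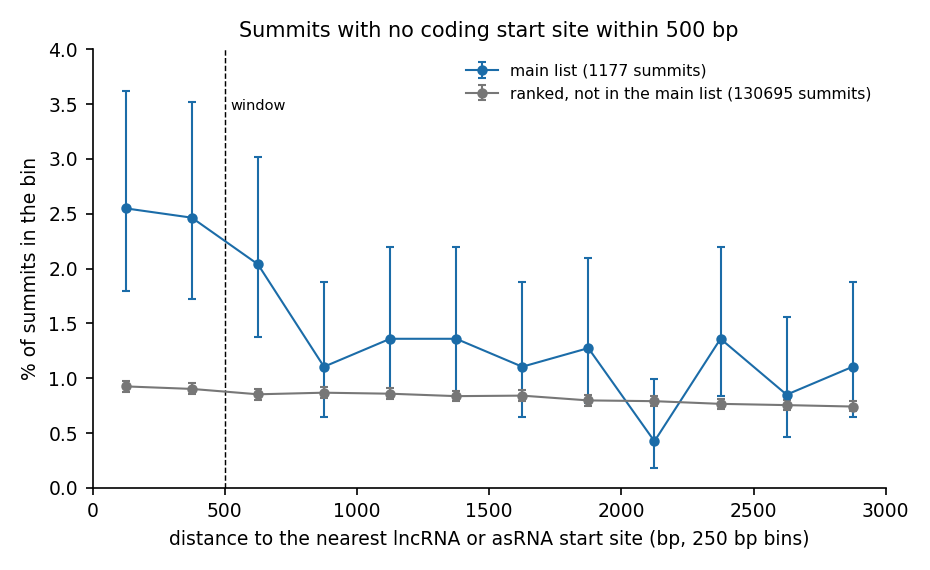
Share of summits by distance to the nearest lncRNA or asRNA start site, in bins of 250 bp, for summits with no coding start site within 500 bp; bars are 95% Wilson intervals, and the dashed line is the 500 bp used to choose the genes. The main list has 2.55%, 2.46% and 2.04% of its summits in the first 3 bins and the ranked list 0.925%, 0.902% and 0.853%.

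The choice of 500 bp did not fall at a step in the data. Of 1177 main summits away from coding start sites, 30 lay within 250 bp of a noncoding start, 29 at 250 to 500 bp, 24 at 500 to 750 bp and 13 at 750 to 1000 bp. The share was 2.55% in the nearest bin (interval 1.79 to 3.62) and 1.10% in the fourth (0.647 to 1.88). Over the same distances ranked summits outside the main list stayed between 0.853% and 0.925%. Over both kinds of gene, those just inside the limit were CR43918, with a summit 499 bp downstream (signal 66.2), and CR45291, 499 bp upstream (74.2). Both have a coding start site at the summit, so neither is among the 1177. Just outside were CR42862 at 509 bp upstream (100.01) and CR44522 at 515 bp downstream (126.9), both stronger than the pair inside.

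**Figure D4:**
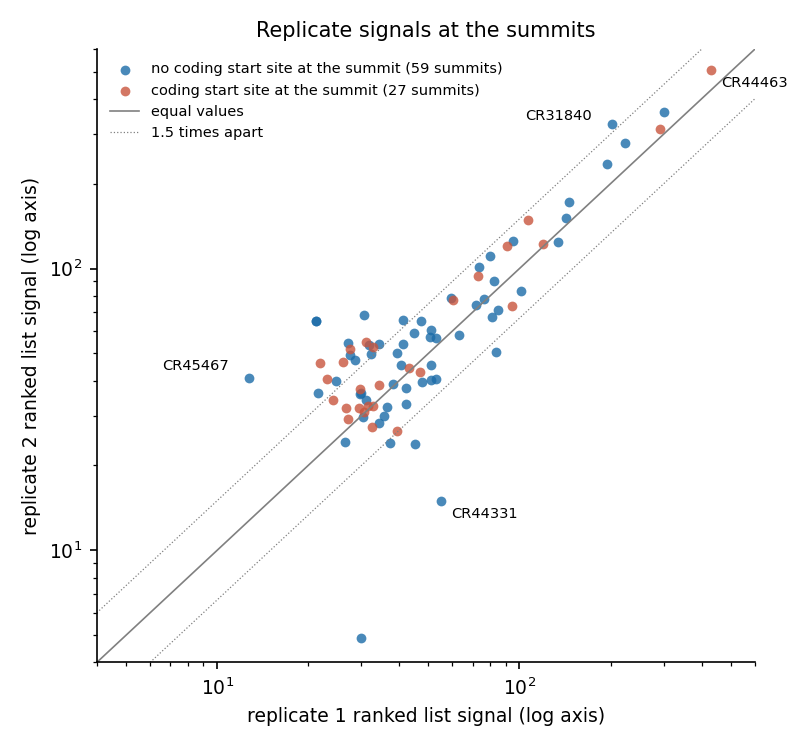
Signal at each summit in the ranked list of replicate 1 and of replicate 2 (log axes) for the 86 summits ranked in both; the solid line marks equal values and dotted lines values 1.5 times apart. Strong summits lie mostly near the line, though CR31840 (202.6 in replicate 1 and 325.6 in replicate 2) lies outside the dotted lines. CR44331 and CR45467 lie far from the solid line on opposite sides.

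Support by the single replicates followed signal, and the 2 measures are not independent, since the main list was made from both replicates. Of the 87 summits, 36 overlapped a thresholded peak of both replicates by at least 1 bp, 28 of 1 replicate and 23 of neither. Their median main list signals were 166.4, 79.3 and 62.1. The 36 in both were 41.4% of the 87 (95% Wilson interval 31.6 to 51.9), beside 42.5% of all 2062 main summits. The share was 45.8% for the 59 summits without a coding start site (33.7 to 58.3) and 32.1% for the 28 with one (17.9 to 50.7), intervals that overlap. Main summits at coding start sites as a whole reached 50.5% (47.2 to 53.8). By gene, 35 of 83 had their strongest summit in both lists, 18 in the replicate 2 list only and 9 in the replicate 1 list only. Replicate 1 had the higher value in 26 of 86 summits, or 30.2% (21.5 to 40.6), beside 41.3% of all main summits (39.2 to 43.5), and the replicates' signals come from lists of different scale. The values were within 1.5 times of each other in 61 of 86, or 70.9%, beside 73.3% of all main summits. The peaks of the weaker summits of CR45325 (18.2) and CR44651 (6.80) share replicate peaks with the stronger summits of those genes. CR45325 does so in both replicates and CR44651 in replicate 1, so these replicate values were not independent.

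The median signal over the 87 summits was 85.0, beside 88.1 for all main summits. It was 92.3 for the 59 without a coding start site, 71.2 for the 28 with one and 98.4 for all 885 summits at coding start sites. Among the 100 strongest main summits, 7 were at noncoding start sites, which is 8.05% of the 87 (95% Wilson interval 3.95 to 15.7) beside 4.85% of all main summits. Of the 87 summits 75, or 86.2%, were also in the conservative list, beside 85.4% of all main summits.

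**Figure D5:**
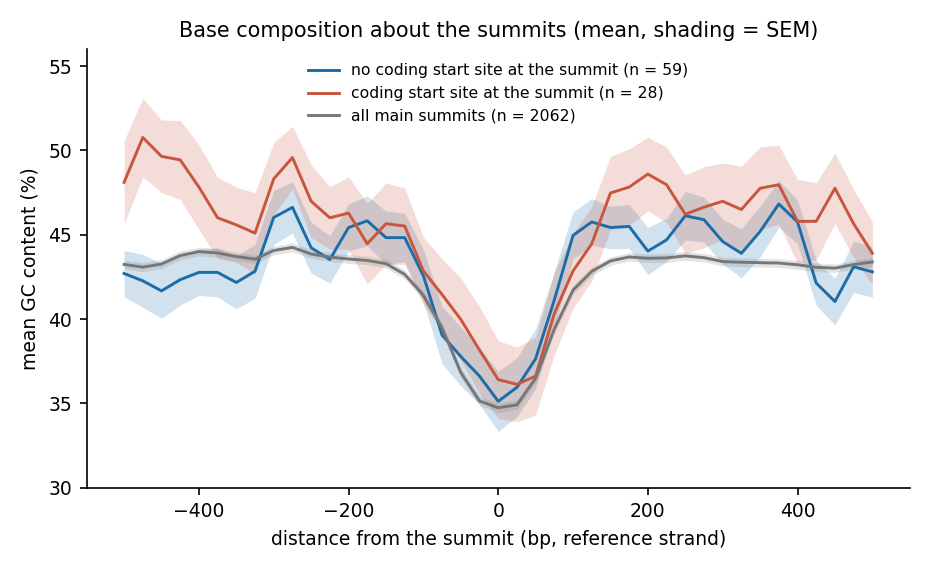
Mean GC content in windows of 51 bp at steps of 25 bp from the summit, with the standard error as shading, for the noncoding genes without and with a coding start site at the summit and for all main summits. All 3 lines dip at the summit, to 35.1%, 36.4% and 34.7%.

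The summits sat in DNA poorer in G and C than their flanks, as main summits did in general. GC content within 50 bp of the summit was 36.5% ± 11.9 (SD, n = 87 summits), against 44.7% ± 7.38 in windows 400 bp to either side. It was 36.3% ± 12.2 for the 59 summits without a coding start site, 37.1% ± 11.3 for the 28 with one, 35.0% ± 10.7 for all main summits and 46.0% ± 9.54 for ranked summits outside the main list. The summit was below its flanks in 63 of 87 cases, or 72.4%, beside 73.9% of main summits. An A/T run of 6 was present in 86.2% of the 87 windows, in 88.6% of main and in 67.1% of ranked windows. The TATA box letters TATAAA, searched on both strands and able to lie within such a run, were in 19.5%, 21.5% and 7.94%. An A/T run was in 85.7% of the 28 windows with a coding start site and 86.4% of the 59 without, and TATAAA in 17.9% and 20.3%. The flanks had a GC content of 47.3% ± 8.34 (SD) with a coding start site and 43.5% ± 6.61 without. The summit was below its flanks in 78.6% and 69.5%. Differences between the 2 kinds of gene were not tested.

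Base composition, replicate support and signal moved together. The 36 summits in both replicate lists had a GC content of 30.3% ± 9.04 (SD), the 28 in 1 list 39.8% ± 12.2 and the 23 in neither 42.3% ± 11.2. Over all main summits the same 3 classes had 32.3% ± 9.22, 34.4% ± 10.04 and 39.7% ± 11.8. Of the 12 summits with a GC content over 50%, only that of CR44966 was in both replicate lists, beside 19.7% of the 218 such summits in the main list. The other 11 include CR43650 with mir-8, CR44371 near the nuclear receptor gene Hr51 (60.4%) and asRNA:CR45778 against dUTPase (59.4%). The part of base composition in these calls was not tested, and it was not separated from signal.

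Other short motifs were searched on both strands of the same windows. The DRE, spelled TATCGATA, was in none of the 87 windows and in 1.12% of main windows. BEAF-32 core letters CGATA were in 21.4% of the 28 windows with a coding start site (interval 10.2 to 39.5) and in 5.08% of the 59 without (1.74 to 13.9), intervals that overlap, beside 13.3% of main and 10.4% of ranked windows. GAGAG, the letters of the GAGA factor, was in 10.3%, 9.31% and 12.2% of the 87, main and ranked windows. The homeodomain letters TAATTA were in 8.05%, 9.60% and 5.13%, the E-box CANNTG in 33.3%, 36.3% and 43.0%, and the Initiator TCAGTT in 4.60%, 5.82% and 5.99%. The CTCF core AGGTGGCG was in 1.15%, 0.824% and 0.333% of the 87, main and ranked windows. For the Su(Hw) core GCATACTT the shares were 2.30%, 0.679% and 0.408%, and for motif 1, GGTCACAC, 1.15%, 0.533% and 0.189%. The shares of the 87 rest on 1 or 2 windows each, and their intervals (0.203 to 6.23, 0.633 to 8.00 and 0.203 to 6.23) take in the main shares. With 100 bp to each side of the summit, GAGAG was in 29.9% of the 87 windows (interval 21.3 to 40.2), 24.2% of main and 22.8% of ranked ones, so the order of members and ranked summits changed with the window. A match is a description of letters and not a binding site.

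Of the 83 genes, 55 have a single exon (66.3%), beside 62.2% of all 2447, and the median gene length was 688 bp beside 720 bp. A coding gene overlaps 45 of them, or 54.2% (interval 43.6 to 64.5), beside 43.8% of all 2447 (41.9 to 45.8). Wholly inside a coding gene lie 25, or 30.1%, the same share as over all 2447 to 3 digits. Summits without a coding start site lay outside coding genes in 35 of 59 cases, in introns in 20 and in coding gene exons in 4. The share in introns was 33.9% (interval 23.1 to 46.6), beside 67.4% of main summits that were away from both kinds of start site (64.5 to 70.0). Another main summit lay within 10 kb of 55 of the 87, or 63.2% (52.7 to 72.6), beside 52.8% of all main summits (50.6 to 54.9). Distances and places of this kind follow partly from the choice of genes, since a noncoding gene outside coding genes brings its summit there.

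None of the well-studied long noncoding RNAs searched for was found. Of 20 symbols, 12 matched a gene of the annotation and none had a main summit within 500 bp. Over all lncRNA and asRNA genes the share with one was 3.39%, and 12 genes are too few to tell apart from that. The unmatched symbols were those of the small nucleolar RNA hosts Uhg1 to Uhg8, so that class was not examined. The nearest main summit was 5932 bp from a start site of roX1 and 43999 bp from one of roX2, the RNAs of dosage compensation. It was 3557 bp from a start site of bxd and 35111 bp from one of iab8, transcripts of the bithorax complex, and 1 main summit lay inside the bxd gene. Inside Vinr lay 2, among them that of CR44619. For CRG, let7C, cherub, acal and yar the distances were 4630, 21882, 29454, 68562 and 131378 bp, and sphinx lies on chromosome 4. Hsromega, a nuclear RNA induced by heat shock, had a ranked summit 177 bp downstream of a start site with a signal of 80.3 and a score of 1000, which did not enter the main list. It came after 2 others among the 1868 noncoding genes with a ranked but no main summit, asRNA:CR45908 (99.5, also with a score of 1000) and CR44589 (83.1). The median over the 1868 was 24.3, and 496 genes had no ranked summit. A gene without a main summit is not shown to lack the protein, since the depth is unknown and weak or rare sites may be missed.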

How the data were processed

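Per the labels, ChIP-seq was made on the dm6 assembly from 2 biological replicates of 1 group. The authors deposited peak lists: the files' descriptions trace thresholded and ranked lists to 1 replicate or to both. Aligner, peak caller and versions: not given in the sources used here. The signal of a peak, its score (up to 1000) and summit offset are the authors' deposited values. Signal was used only within a list or set side by side. The score in the main list was at least 830. Depth is unknown.

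Genes and start sites came from Ensembl 115, in dm6 coordinates, and sequence from RefSeq. Peaks off the 6 arms (26 of 2088) were left out. Start-site assignment was tested on simulated positions. Shares carry Wilson 95% intervals, which cover counting error only, and no test of difference was run. The 12 strongest genes of each kind, symbols other than CR numbers, the 2 genes on each side of the window limit, genes sharing a summit and 20 known RNAs were to be named, and any other gene was picked with its values known. The members and lists were chosen with earlier results of these data known. Alternatives were other lists, windows, start-site definitions and gene classes. Python 3.11.15, pandas 2.3.3, numpy 2.4.6, scipy 1.17.1 and matplotlib 3.10.9 were used.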

Additional observations from a re-analysis of the deposited data

How the results depend on the processing

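The list of a single replicate gave 47 to 54 genes in place of 83, and 43 and 52 of these were among the 83. With a single replicate, 27.8% to 31.9% of the genes had a coding start site at the summit. The median GC content was then 31.2% to 32.7%, and the median signal 61.8 to 65.2, on the scale of those lists. The share of summits upstream of the noncoding start, over both kinds of gene together, was 57.1% to 58.3%. Main peaks at or above the median signal gave 40 genes, 22.5% with a coding start site, a median signal of 153.6 and a median GC content of 28.7%. Main peaks in both replicate lists gave 35 genes, a median signal of 166.4 and a median GC content of 27.7%, beside 35.6% as reported. A window of 250 bp gave 44 genes and one of 1000 bp gave 142, of which 47.9% had a coding start site. A smaller or larger count follows from each of these choices by construction. The conservative list (79 genes), the 5' end of the gene alone (80) and all genes of the noncoding RNA class (104) stayed within 1.5 times of the count. Of 48 comparisons over 6 results, 34 stayed close, meaning within 1.5 times for the count of genes and within the 95% interval of the reported value for shares and medians. The upstream share over both kinds of gene together, 54.5% as reported (95% Wilson interval 44.2 to 64.5), did so under every alternative run. The upstream share of each kind of gene apart was not rerun. Of 11 motifs, 5 moved beyond their interval with 100 bp to each side of the summit: an A/T run of 6 was then in 95.4% of the 87 windows, TATAAA in 37.9%, GAGAG in 29.9%, the E-box in 59.8% and the Initiator in 12.6%, in windows that are longer by construction. No paired analysis was possible because there is only 1 group. Without read counts or a control library, depth and background could not be judged.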

Other observations

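Some of the noncoding genes lay close together. CR31840 and CR45352 had summits 1.83 kb apart on 2L, with signals of 527.8 and 100.1. The nearest coding start site was that of hll for CR31840, at 2911 bp. For CR45352 it was that of NimC3, a gene of the Nimrod phagocytosis receptors, at 2057 bp. A weaker summit of CR45352 had a signal of 66.3. CR46352 and CR45588 had summits 10.4 kb apart on 3R, with signals of 92.3 and 83.1, and the nearest coding start sites were 32413 and 32906 bp away. CR43651, the precursor of mir-14, lay 12.7 kb from asRNA:CR45281 (signals 87.2 and 154.8), and CR43650, the precursor of mir-8, lay 15.4 kb from CR44380 (70.0 and 88.9). CR45251 had 2 summits, 170.6 and 119.5, and stood 14.4 kb from CR45036 (67.0) and 55.97 kb from CR44363 (261.2).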
